A study of Mus musculus with 2 samples.

Results

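The cells described here are CD4 memory or effector T cells of the mouse spleen, 399 of the 15278 T cells that passed the filters and of 17299 putative cells in all. They were chosen by the genes detected in each cell. A member held at least 1 molecule of a CD3 chain gene (Cd3d, Cd3e or Cd3g), at least 1 of Cd4, and molecules of at least 2 of 5 memory genes: S100a4, S100a6, Itgb1, Maf and Cxcr3. Cells with any molecule of Cd8a, Cd8b1, Foxp3, Zbtb16 or Klrb1c were left out, and so were cells with 2 or more of the follicular helper genes Cxcr5, Pdcd1, Bcl6, Tox2 and Il21. The mice were female C57/BL6N animals. One group was given saline (labelled 0 h), and the others were given 6 mg/kg of remimazolam, a short-acting benzodiazepine, with spleens taken at 4 h or 8 h. Cells of 3 mice were pooled under 1 sample tag per group, and the 3 pools shared 1 whole-transcriptome library and 1 sample-tag library made on the BD Rhapsody platform. The labels give the sort as CD45+CD3+CD5+ in one place and as CD45+ in another.

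Each group is 1 pool, so no difference between groups could be tested, and the spread between mice is not known. No saline pool was taken at 4 h or 8 h, so treatment cannot be told apart from the time of sampling or from anything else that differed between pools. Both comparisons with saline share the saline pool. All intervals are 95% intervals for counting error only. They are exact, except that a ratio of 2 ratios has an approximate one, and molecules of 1 cell are not independent, so they are too narrow where a few cells hold most molecules.

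A CD4 T cell that has met its antigen loses much of the programme that keeps naive cells circulating through lymphoid organs, and a part of its progeny persists as memory cells. Memory and effector cells carry the hyaluronan receptor CD44, integrins and chemokine receptors that lead them into tissues, and they can make cytokines soon after a new stimulus. Effector memory cells lack the chemokine receptor CCR7, central memory cells keep it, and the helper lineages are set apart by factors such as T-bet (Tbx21) and GATA-3.

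The members numbered 115 in the saline pool, 152 in the 4 h pool and 132 in the 8 h pool. Depth was close between pools, at a median of 2791, 2652 and 2576 molecules per member. Together the members held 362293, 493848 and 405775 molecules, and 3 molecules of a gene therefore equal 8.28, 6.08 or 7.39 CPM. CPM is a gene's molecules scaled to a common total per pool. The sample tags were read less deeply in the saline pool, with a median of 231 tag reads per member against 527.5 and 460. Each barcode carried 1 tag call, and the 1063 called multiplets were left out.

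The values that chose the members are given as a description. Itgb1, the beta 1 integrin chain (chromosome 8, 128685654 to 128733200, GRCm38), was detected in 87.0% of the members, and Maf, a transcription factor of effector T cells, in 67.2%. S100a6 and S100a4, neighbouring genes for calcium-binding proteins on chromosome 3, were found in 56.6% and 27.3%. Cxcr3, the receptor for interferon-induced chemokines (chromosome X), was found in 47.9%. The most frequent combination was Itgb1 with Maf alone, in 66 members, and the next was S100a6 with Itgb1, in 45. Many members sat at the threshold: 186 held exactly 2 of the 5 genes, 110 held 3, 76 held 4 and 27 held all 5. Just outside it were 700 CD4 cells with 1 memory gene, and in 73.3% of these that gene was Itgb1, against 80.1% with Itgb1 among members with exactly 2. A further 4081 CD4 cells passed the same exclusions with 0 memory genes, and they served as the naive-rich reference below.

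Some of the 5 memory genes differed in level between the 3 pools. Itgb1 stood at 1882 CPM in the saline pool, 1940 at 4 h and 1917 at 8 h, with overlapping intervals. S100a6 stood at 467 CPM in saline, 721 at 4 h and 626 at 8 h, from 60, 87 and 79 cells. S100a4 stood at 237, 288 and 311 CPM and Cxcr3 at 221, 312 and 259 CPM. Maf went the other way at 4 h, at 599, 508 and 727 CPM in saline, 4 h and 8 h, and was detected in 71.3%, 59.9% and 72.0% of the members. Since these genes chose the members, their levels show the make-up of each pool's members and were not compared further.

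The rule leaves out many cells that carry the same memory genes. In all, 1484 T cells had 2 or more of them. Of these, 694 had no Cd4 molecule, and 328 of those had no Cd8a or Cd8b1 molecule either. CD4 cells whose Cd4 message was not sampled are not among the members. A further 183 held Cd4 and Foxp3, 103 held Cd4 with a CD8 chain, 101 held Cd4 with 2 or more follicular helper genes, and 76 held Cd4 with Zbtb16 or Klrb1c. Among the members, 90 carried 1 follicular helper gene.

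The members made up 2.29% of T cells in the saline pool (115 of 5013, interval 1.898 to 2.75%), 2.96% at 4 h (152 of 5133, 2.52 to 3.46%) and 2.57% at 8 h (132 of 5132, 2.16 to 3.04%). The 4 h share was 1.29 times the saline share (interval 1.01 to 1.66), and the 8 h share was 1.12 times it (0.867 to 1.45). Of the CD4 cells passing the same exclusions, members were 6.72% in saline, 9.17% at 4 h and 7.29% at 8 h. When every cell was thinned to 1500 molecules, the shares of T cells were 1.98%, 2.34% and 2.18%, and the 4 h ratio was 1.18 with an interval from 0.882 to 1.58. With 3 or more memory genes required it was 1.43 (1.01 to 2.03). The 4 h pool was highest in each of these settings, and the interval of its share overlapped that of saline.

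**Figure D1:**
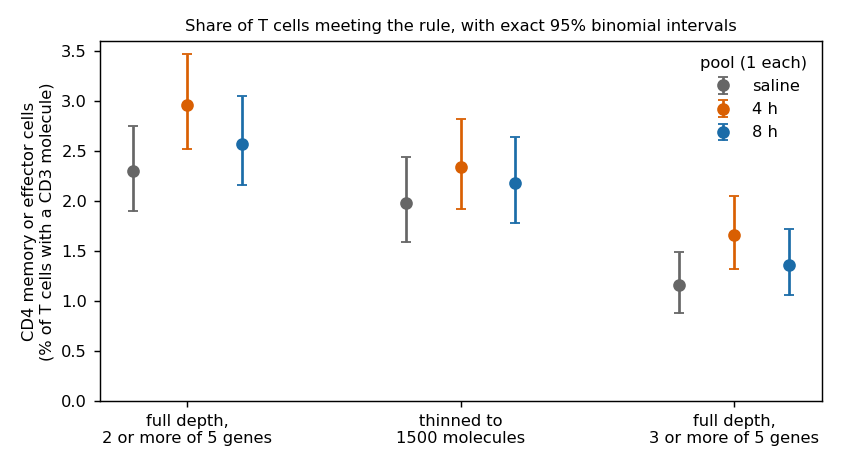
Members as a percentage of T cells with a CD3 chain molecule in each pool (points, 1 pool per group) with exact 95% binomial intervals (bars), at full depth, after thinning each cell to 1500 molecules, and with 3 or more memory genes required. At full depth the shares were 2.29%, 2.96% and 2.57%, and the 4 h pool was highest in all 3 settings while its interval overlapped that of saline.

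Genes outside the rule are given as a description of the members, since the reference was chosen for holding 0 memory genes. Cd44 was detected in 53.6% of the members and 7.11% of the CD4 cells with 0 memory genes, and at 309.8 against 35.03 CPM it was 8.85 times higher (7.64 to 10.2). Il2rb, the beta chain of the interleukin-2 and interleukin-15 receptors, was found in 65.4% against 5.12%. Ahnak, a giant scaffold protein of activated T cells, was found in 62.4% against 3.90%, with a CPM ratio of 26.2 (22.4 to 30.7). Ccr7 was detected in 22.1% of the members against 51.3%, and Ly6c1 in 2.76% against 27.0%. The median cell held 2656 molecules in the members and 2397 in the reference. Free RNA sets a floor under such shares: in 409 B cells, with a median of 2230 molecules, Il2rb was detected in 1.22%, Ccl5 in 2.20% and Gata3 in 0.489%. Among the memory genes of the rule the shares in B cells were higher for Itgb1, at 15.2%. By pool Itgb1 was detected in 6.96%, 19.5% and 17.2% of B cells in saline, 4 h and 8 h. S100a6 was detected in 4.16%, Maf in 3.18%, S100a4 in 2.69% and Cxcr3 in 1.22%. Free RNA and the B cells' own expression were not separated.

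**Figure D2:**
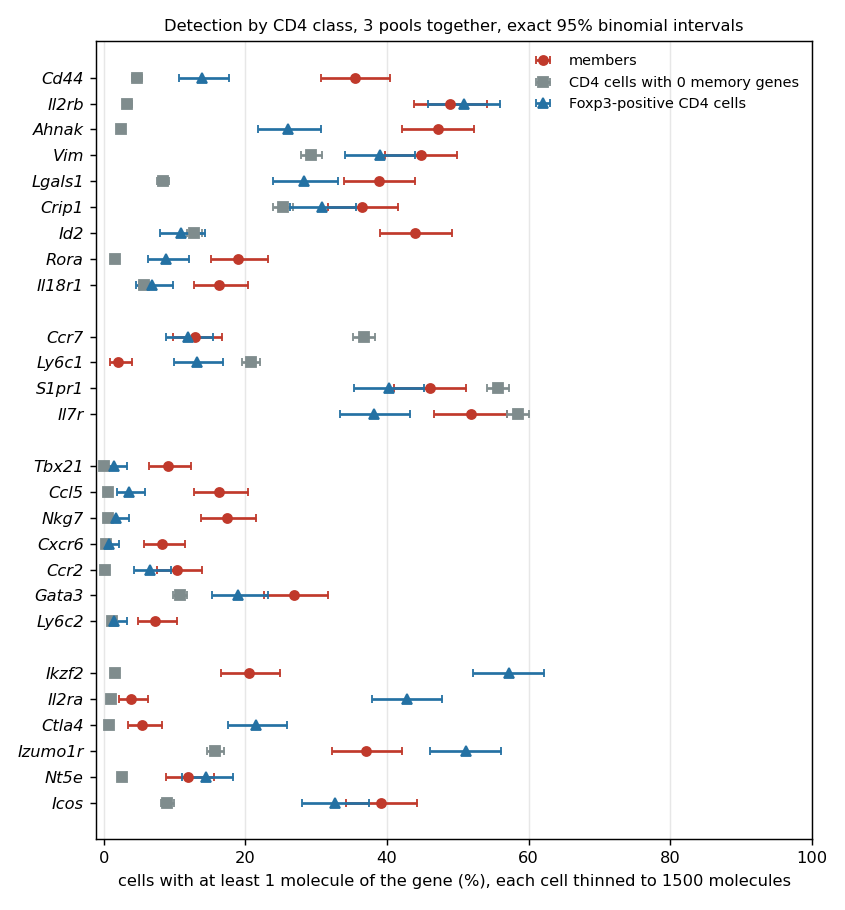
Percentage of cells with at least 1 molecule of each gene after thinning every cell to 1500 molecules, for the members, CD4 cells with 0 memory genes and Foxp3-positive CD4 cells, over the 3 pools together with exact 95% binomial intervals. From top to bottom the blocks hold memory genes, naive and homing genes, helper lineage genes and genes shared with regulatory T cells. Members lie to the right of the reference for all 9 memory genes and to the left for all 4 naive and homing genes, and Ikzf2 and Il2ra separate them from Foxp3-positive cells.

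The whole gene lists gave the same picture, read against all genes tested in that comparison. Of 9100 genes with 50 or more molecules over both classes, 13.8% were at least 1.5-fold higher in the members and 12.2% at least 1.5-fold lower, with a median log2 ratio of 0.03. These shares are a background. The contrast is the rule's own, so list counts against the reference describe the members and do not test the label. Of the memory programme list, 17 of 18 genes tested were higher by that fold, with a median log2 ratio of 2.32. Besides Cd44, Il2rb and Ahnak these included the annexin Anxa2, the galectins Lgals1 and Lgals3, Vim, Crip1, S100a10, S100a11, Il18r1, Rora, Id2 and Prdm1. Of the naive and homing list, 11 of 15 genes were lower, with a median of -1.58: among them were Ccr7, the naive T cell factors Lef1, Satb1, Bach2 and Foxp1, and Igfbp4. Tcf7, which memory precursors also use, was 0.707 times the reference level (0.669 to 0.746), and S1pr1, the receptor for exit from lymphoid organs, was 0.680 times it.

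The genes that stood furthest above the reference in the least extreme of the 3 pools were, by rank, Myo1f, Anxa2, Ccl5, Mki67, Hmmr, Tbx21, Ccr2, Nkg7, Ahnak, Pclaf, Atp2b4, Nrp1, Nusap1, Birc5 and Chst2. Myo1f, a myosin of immune cells, stood at 152, 124 and 150 CPM in the saline, 4 h and 8 h pools, against 1.47, 0.640 and 1.15 CPM in the reference. Anxa2 stood at 251, 233 and 205 CPM. The rank takes the pool with the smallest difference, so each of these genes was above the reference in all 3 pools, some of them through few members. Hmmr and Nusap1 each came from 5 members in every pool. Pclaf came from 6, 9 and 7 and Birc5 from 9, 7 and 7 members in saline, 4 h and 8 h. The lowest by the same rank were Igfbp4, Satb1, Atp1b1, Ly6c1, Lef1, Als2cl, Treml2, Pdk1, Bach2 and Ccr7.

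Genes of several helper lineages stood above the reference. Of 12 T helper 1 genes tested, 11 were higher in the members, with a median log2 ratio of 3.52. After thinning to 1500 molecules 8 of 9 were higher with a median of 1.75. Without cells holding B cell, myeloid or neutrophil molecules 8 of 10 were, with a median of 2.88. That setting is broad, since it drops every cell with 2 or more molecules summed over 28 marker genes. It kept 68 of 115 members in saline, 89 of 152 at 4 h and 77 of 132 at 8 h, and 2617 of 5013 saline T cells. Of the follicular helper genes outside the gate, 8 of 8 were higher, with a median of 1.81. T-bet (Tbx21) stood at 58.0, 56.7 and 56.7 CPM in the saline, 4 h and 8 h pools, from 15, 23 and 18 cells, and at 0, 0.640 and 0.288 CPM in the reference. It was detected in 14.0% of the members and in 0.0735% of the reference cells. The chemokine Ccl5 was detected in 76 members (19.1%) and Nkg7, a granule protein, in 93 (23.3%). The chemokine receptors Ccr2 and Cxcr6, which guide effector cells to inflamed tissue, were detected in 14.0% and 13.3%. Gata3, the factor of T helper 2 cells that all T cells use at a lower level, was found in 38.9% of the members against 15.6%. Of the 3 T helper 2 genes tested, Gata3 and Ccr4 were higher in the members and Il4ra was lower. Only 1 of 10 T helper 17 genes could be tested, Tmem176b, and it was higher.

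Of the cytokine and chemokine list, 6 of 11 genes tested were higher in the members, beside 13.8% of all genes: Il2, Tnf, Tnfsf8, Tnfsf11, Tnfsf14 and Ccl5. The list median log2 ratio was 0.94. After thinning to 1500 molecules 3 of 8 were higher, Tnf, Tnfsf8 and Ccl5, and Lta was lower, with a median of 0.32. Tnfsf8 (CD30 ligand) was detected in 106 members and Cd40lg, the CD40 ligand that helps B cells, in 101. The effector cytokines read were detected in fewer cells. Ifng was detected in 22 members, at 3, 8 and 11 cells in saline, 4 h and 8 h. Il4 was detected in 6 and Il10 in 2. These counts are too low to compare between pools.

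A part of the members shared genes with regulatory T cells although none held a Foxp3 molecule. Ikzf2, which encodes Helios, a factor of regulatory T cells, was detected in 27.6% of the members, in 64.2% of the 419 Foxp3-positive CD4 cells and in 2.38% of the reference. Il2ra was detected in 6.02%, 53.7% and 1.64% of these classes, and Ctla4 in 9.77%, 33.7% and 1.23%. Of the list of regulatory T cell genes outside the gate, 8 of 10 were higher in the members than in the reference, beside 13.8% of all genes. Gpr83, another gene of that list, was lower, beside 12.2% of all genes. In all, 112 members carried 2 or more genes of the list (33, 43 and 36 in saline, 4 h and 8 h). That count was made in the members only, and Capg of this list is also in the memory programme list. Regulatory T cells whose Foxp3 message was not sampled cannot be told apart from members by the rule. Izumo1r, the folate receptor FR4, was found in 50.9% of the members, the costimulator Icos in 52.4% and the ectoenzyme Nt5e (CD73) in 18.8%. Izumo1r and Icos are also in the list of follicular helper genes outside the gate.

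Dividing cells formed a small part of the members. With at least 3 of Mki67, Top2a, Birc5, Cdk1, Ccnb2 and Ube2c detected, a set chosen after the values were seen, 23 of 399 members were cycling (5.76%, interval 3.69 to 8.52%), against 3 of 4081 cells in the reference. They numbered 8 of 115 in saline, 8 of 152 at 4 h and 7 of 132 at 8 h, and their median of 6668 molecules was well above that of all members. Of the cell cycle list, 11 of 13 genes were higher in the members than in the reference, with a median log2 ratio of 2.59, and after thinning to 1500 molecules 5 of 9, with a median of 0.73.

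Markers of other cells were low but not evenly spread over the pools. The 12 B cell markers summed to 676 CPM in the saline members against 205 at 4 h and 266 at 8 h, with Ebf1 and Pax5 at 0 in all 3, and to between 287 and 335 CPM in the reference. In saline 62 of the 72 Cd74 molecules came from 1 cell. The 6 neutrophil markers were at 0 in saline and 8 h and at 267 CPM at 4 h, where 1 cell held all 68 S100a9 molecules. The 10 myeloid markers stood at 367, 367 and 335 CPM with Csf1r, C1qa and C1qb at 0, and between 294 and 305 CPM in the reference. The 7 natural killer markers stood at 80.1, 42.5 and 64.1 CPM with Ncr1 at 0, and the 5 gamma delta T cell genes at 63.5, 36.5 and 138 CPM.

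The members were not uniform. Splits by detection of Cxcr3, Maf or Ikzf2 were chosen after the values were seen and are given as descriptions, over the 3 pools together. Members with a Cxcr3 molecule (191, median 2818 molecules) had Tbx21 3.07 times higher (1.76 to 5.65) than the 208 without (median 2510). Nkg7 was 2.47 times higher in them, Il2rb 1.46 times and Ccl5 2.17 times, although in the saline pool alone Ccl5 stood at 0.93. Ccl5 was detected in 27.75% of members with Cxcr3 against 11.06% of those without. At 8 h, 1 cell held 195 of the 428 Ccl5 molecules. Lef1 was at 0.518 of the level without Cxcr3 and Igfbp4 at 0.289. The division genes Mki67 and Top2a were 3.38 and 3.93 times higher, detected in 34 and 32 members with Cxcr3 against 22 and 19 without. Cycling members held a median of 6668 molecules, and detection of Cxcr3 also depends on depth. The split was not repeated after thinning or without cycling members, so the part of depth in the division genes was not tested. Cd44, at 1.02 times (0.837 to 1.26), did not separate them.

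Cxcr3 and Maf are genes of the rule, so a member without one of them had to hold 2 of the other 4, and both splits overlap: 124 of the 191 members with Cxcr3 also held Maf. In the 268 members with Maf, Ikzf2 was 2.44 times higher (1.79 to 3.37) than in the 131 without it, Nt5e 2.68 times, Tbc1d4 2.05 times, Izumo1r 1.80 times and Icos 1.60 times. Gpm6b, a membrane proteolipid, was 3.83 times higher (2.30 to 6.77). Ly6c2 was at 0.241 of the level without Maf (0.178 to 0.325). The intervals included 1 for Ccl5 (1.05, 0.899 to 1.23) and for Tbx21 (1.03, 0.618 to 1.78). Median depth was 2652 and 2736 molecules.

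Members with Ikzf2 (110, median 2708 molecules) were compared with the 289 without it (median 2649). They held Ccl5 at 0.167 of the level without it (0.121 to 0.224) and Ccr4 at 0.353 (0.169 to 0.666). By pool the Ccl5 ratio was 0.546 in saline, 0.139 at 4 h and 0.063 at 8 h. At 8 h, 1 cell held 195 of the 428 Ccl5 molecules, so these ratios rest in part on few cells. Ccl5 was detected in 12.73% of members with Ikzf2 against 21.45% of those without. Izumo1r was 2.92 times higher with Ikzf2 (2.47 to 3.47), detected in 77.3% against 40.8%, and Tbc1d4 was 2.66 times higher and Nt5e 2.71 times. Ctla4 was 2.74 times higher (1.61 to 4.66). Of the other T helper 1 genes, Nkg7 (0.735, 0.544 to 0.981) and Il18r1 (0.621, 0.424 to 0.890) were also lower with Ikzf2 over the 3 pools together. Il18r1 was not lower in each pool, at 1.39 in saline, 0.874 at 4 h and 0.239 at 8 h. The intervals included 1 for Tbx21 (0.733) and Cxcr6 (1.13).

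**Figure D3:**
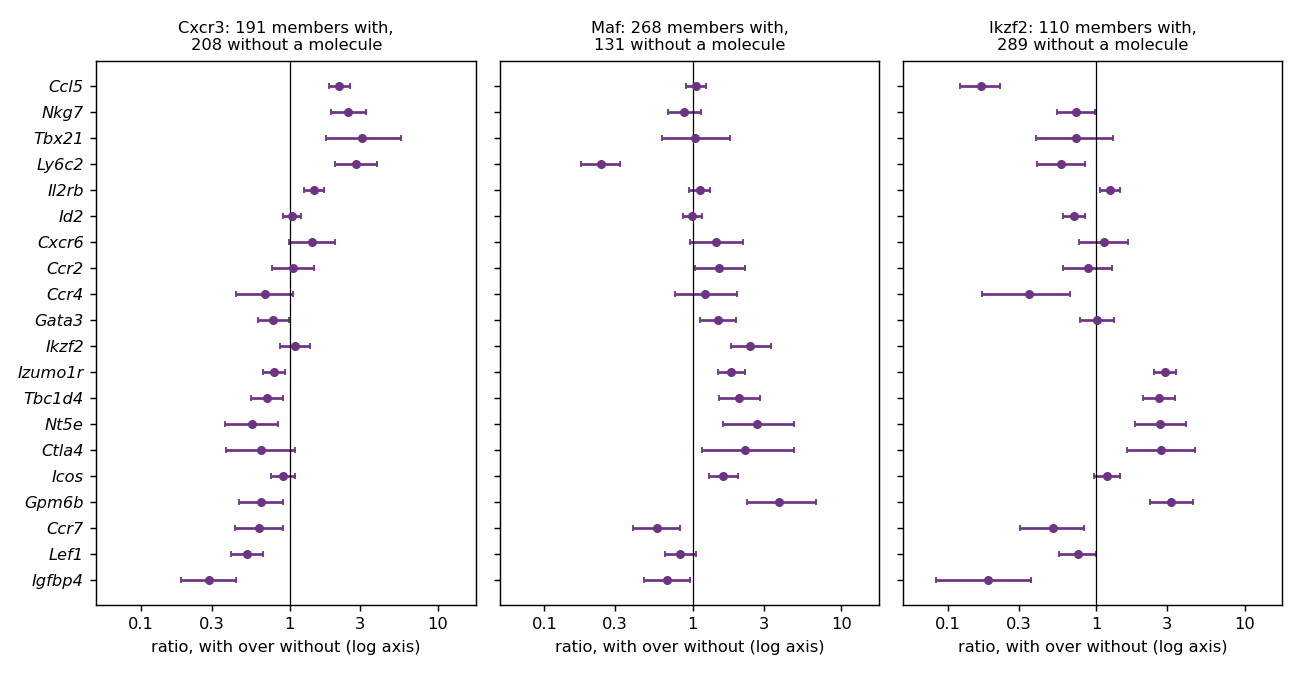
Ratio of CPM between members with and without a molecule of Cxcr3, Maf or Ikzf2 (points, log axis), over the 3 pools together, with exact 95% intervals for counting error. Ccl5, Nkg7 and Tbx21 lie above 1 for Cxcr3. Izumo1r, Tbc1d4 and Nt5e lie above 1 for Maf and for Ikzf2, and Ccl5 lies below 1 for Ikzf2. At 8 h, 1 cell held 195 of the 428 Ccl5 molecules.

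Outside the rule's own genes, treatment comparisons were read against all genes tested. Of 3251 genes with 50 or more molecules over saline and 4 h, 3.6% were at least 1.5-fold higher at 4 h and 4.83% at least 1.5-fold lower. Of 2958 genes at 8 h against saline, 4.53% were higher and 4.63% lower, and of 3350 genes at 8 h against 4 h, 3.88% were higher and 4.42% lower. In the memory programme list 0 of 16 genes tested passed 1.5-fold in either direction at 4 h or at 8 h, with median log2 ratios of 0.20 and 0.19 beside medians near 0 for all genes. Cd44 stood at 273 CPM (222 to 333) in saline, 328 (280 to 383) at 4 h and 320 (268 to 380) at 8 h. Ahnak stood at 458, 567 and 619 CPM and Il2rb at 613, 531 and 609. Counting intervals of the 3 pools overlapped for Cd44 and Il2rb, and for Ahnak those of saline and 8 h did not.

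**Figure D4:**
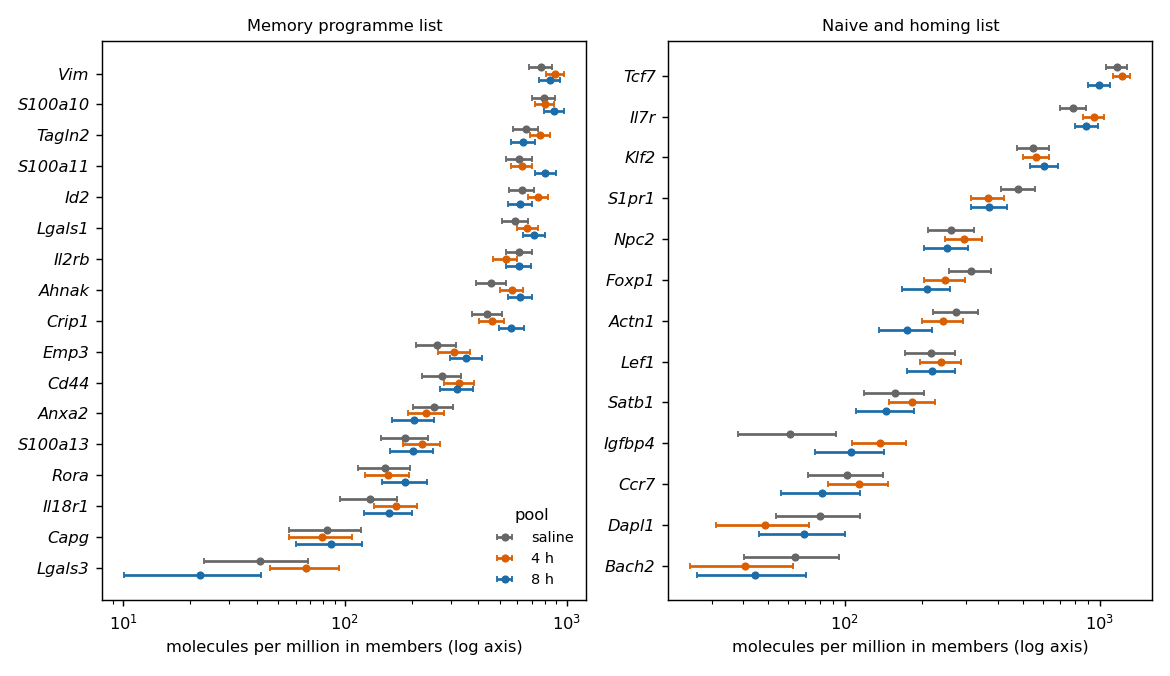
CPM in the members of each pool (points, log axis) with exact 95% Poisson intervals, for the 17 genes of the memory programme list and 13 of the naive and homing list with 50 or more molecules over the 3 pools. The 3 pools lie close together for most genes, and Igfbp4 is lowest in saline (60.7 CPM, against 138 at 4 h and 106 at 8 h).

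Ccr7, which brings naive and central memory cells into lymphoid organs, was lowest at 8 h, at 81.3 CPM against 102 and 113, with overlapping intervals. Igfbp4, an insulin-like growth factor binding protein of naive T cells, was 2.27 times higher at 4 h than in saline (1.38 to 3.85), but from 14 cells against 11. In the naive and homing list, 1 of 13 genes was higher and 1 lower past 1.5-fold at each time. These were Igfbp4 and Dapl1 at 4 h and Igfbp4 and Actn1 at 8 h. Of all genes, 3.6% were higher and 4.83% lower at 4 h, and 4.53% and 4.63% at 8 h.

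Cpt1a, the carnitine palmitoyltransferase that lets fatty acids into mitochondria for oxidation, was among the genes furthest above saline at 4 h (chromosome 19, 3322334 to 3385733, GRCm38). Its molecules numbered 24 in saline, 70 at 4 h and 35 at 8 h, in 18, 47 and 24 cells. The 4 h level was 2.14 times that of saline (1.33 to 3.56) and the 8 h level 1.30 times (0.753 to 2.29), so the interval lay above 1 at 4 h alone. The reference cells were 1.60 times higher at 4 h (1.33 to 1.92), and the ratio of both ratios, 1.34, had an interval from 0.815 to 2.20. Cpt1a was the 1 gene of 5 lipid and sterol genes tested that passed 1.5-fold at 4 h, beside 3.6% of all genes higher.

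The other genes highest at 4 h by rank were S100a9, which came from 1 cell, then Igfbp4, Eapp, Glrx, Nsd2, Ube2c, Hspa14, Itm2a, Arl6ip1, Phf23 and Rnf144a. Glrx, a glutaredoxin that reduces protein disulphides, stood at 77.3 CPM in saline (19 cells), 158 at 4 h (41 cells) and 160 at 8 h (38 cells). It was 2.04 times higher at 4 h (1.31 to 3.27) and 2.07 times at 8 h (1.31 to 3.35), while the reference was at 0.872 and 0.863. Foxp3-positive cells were also higher in Glrx at 4 h (1.67, 1.19 to 2.36), with a ratio of ratios to them of 1.23 (0.713 to 2.11). The ratio of ratios to the reference was 2.35 at 4 h (1.37 to 4.01). Itm2a, a membrane protein, stood at 44.2, 97.2 and 27.1 CPM from 12, 31 and 10 cells, so among the members it was highest at 4 h. Over the 3 pools together the members held it at 0.330 of the reference level (0.259 to 0.416). Ube2c rests on 7, 7 and 6 cells in the 3 pools.

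Among genes lowest at 4 h were the NADPH oxidase subunit Cybb, Nrn1 (neuritin), Gpm6b, Hsd17b12, Rnf6, the interferon-induced GTPase Iigp1, Pou2f2, Eea1, Dusp2, Chst2 and Trmt112. Cd74 was also among them, through the single saline cell. Dusp2, a phosphatase of MAP kinases induced by activation, stood at 403 CPM in saline, 227 at 4 h and 293 at 8 h, from 64, 66 and 54 cells. Its 4 h ratio was 0.563 (0.436 to 0.725), against 0.920 in the reference, with a ratio of ratios of 0.612 (0.471 to 0.793). Pou2f2, which encodes the octamer-binding factor OCT2, stood at 469, 255 and 380 CPM, a ratio of 0.544 at 4 h (0.428 to 0.689). Cybb stood at 119, 14.2 and 61.6 CPM from 17, 5 and 16 cells. B cells held both Pou2f2 (817 CPM) and Cybb (501 CPM), and B cell markers were also highest in the saline members. Those markers summed to 676 CPM in the saline members, against 41450 CPM in the saline B cells. Pou2f2 stood at 7.69, 4.11 and 5.59 times the reference in the saline, 4 h and 8 h members. Without cells holding B cell, myeloid or neutrophil molecules the Pou2f2 ratio was 0.643. How far B cell molecules account for the Pou2f2 or Cybb difference was not tested. Nrn1 stood at 143.5, 32.4 and 66.5 CPM from 16, 10 and 10 cells. Gpm6b was low at 4 h alone, at 163, 50.6 and 165 CPM.

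Ccl5 ranked first among the genes higher at 8 h. It stood at 489 CPM in saline, 336 at 4 h and 1055 at 8 h. The number of cells with Ccl5 hardly differed, at 21, 28 and 27, and 1 cell at 8 h held 195 of the 428 molecules (45.6%). That cell held no gamma delta T cell gene, although 13 of the 76 members with Ccl5 did. The 8 h ratio was 2.16 (1.81 to 2.59), and 1.52 without the top cell of each pool. With 3 or more memory genes required it was 0.854, and without cells holding B cell, myeloid or neutrophil molecules 0.728. The last setting kept 68 of the 115 saline members and 77 of the 132 at 8 h. The direction of the Ccl5 difference therefore turned with the choice of cells.

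Ikzf2 was spread over more cells. Its molecules numbered 75, 83 and 143 in saline, 4 h and 8 h, and it was detected in 24 (20.9%), 35 (23.0%) and 51 members (38.6%). The 8 h pool stood above both others, at 1.70 times saline (1.28 to 2.28) and 2.10 times 4 h (1.59 to 2.78). After thinning to 1500 molecules per cell the shares were 13.2%, 17.6% and 30.6%. The reference stood at 1.27 times saline (0.920 to 1.77), with a ratio of ratios of 1.34 (0.878 to 2.03), and Foxp3-positive cells at 0.815 (0.713 to 0.933). Without cells holding B cell, myeloid or neutrophil molecules Ikzf2 at 8 h was 1.41 times saline, under 1.5-fold. Il2ra, under the minimum of 50 molecules with 22, 16 and 7 from 10, 9 and 5 members, was at 0.284 of saline at 8 h (0.102 to 0.689). Of the 4 regulatory T cell genes tested at 8 h, 1 passed 1.5-fold, Ikzf2, beside 4.53% of all genes higher.

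The remaining genes highest at 8 h by rank were Ube2c, Slc43a2, Fbxo11, Pclaf, Pcmtd1, Cdc25b, Cdkn2aipnl, Zfp950, Glrx and Nsmaf. Pclaf and Ube2c, genes of DNA synthesis and mitosis, each came from 7 or fewer cells at 8 h. The genes lowest at 8 h were Cd74, Rnf14, Ccr4, Aebp2, Serp1, Nrn1, Zfp36l2, Hivep2, Ndufab1, Rnf19a, Brwd1 and Trmt112. Ccr4, a chemokine receptor of skin-homing and T helper 2 cells, stood at 99.4, 83.0 and 34.5 CPM from 20, 24 and 11 cells. Zfp36l2, which binds AU-rich elements and speeds mRNA decay, stood at 991, 810 and 646 CPM. Its 8 h ratio was 0.652 (0.554 to 0.766), while the reference was at 0.798 (0.759 to 0.839) and Foxp3-positive cells at 0.783.

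**Figure D5:**
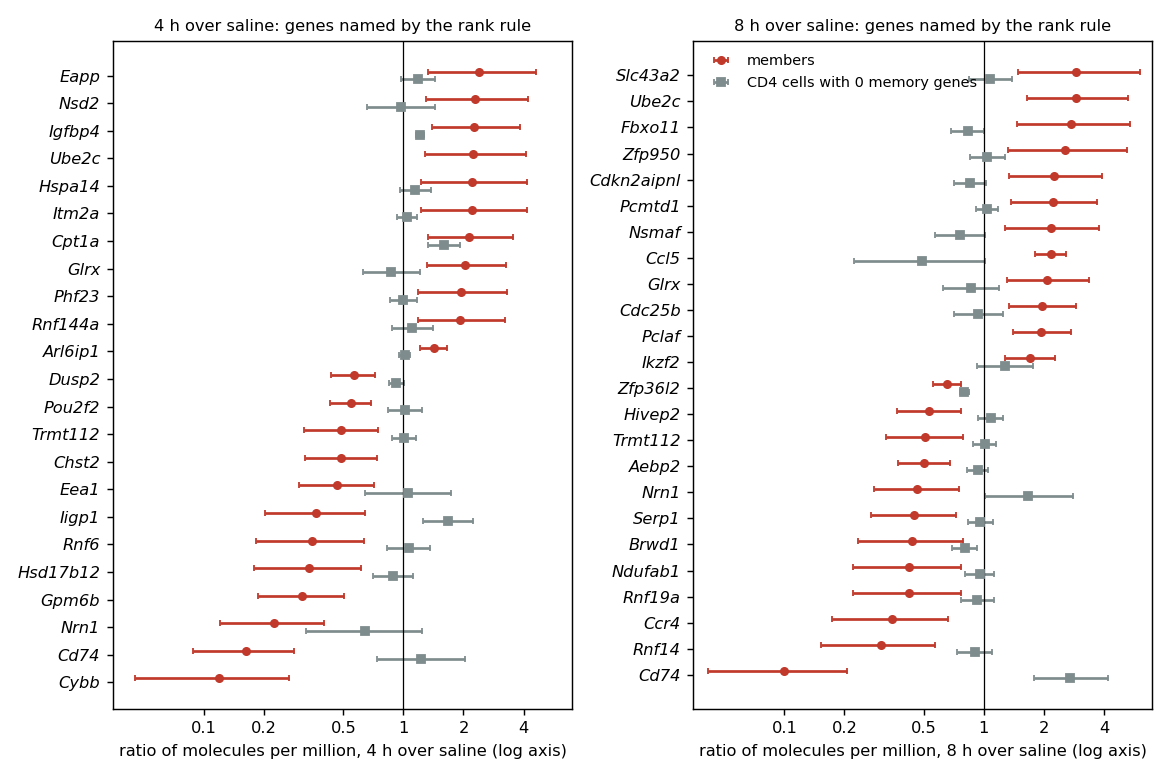
Ratio of CPM to saline (points, log axis) at 4 h (left) and 8 h (right) with exact 95% intervals for counting error, for the genes named by rank (S100a9, from 1 cell, left out), in members and in CD4 cells with 0 memory genes where both pools held 5 or more molecules. The reference points lie near 1 for most genes, and Cpt1a at 4 h and Zfp36l2 at 8 h lie on the same side of 1 in both classes. The genes were ranked on the members' own ratios, so the greater distance of the members from 1 is not read as a difference between classes.

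Glucocorticoid-responsive genes did not follow 1 direction in the members. At 4 h 0 of 8 genes tested passed 1.5-fold. At 8 h Cxcr4 and Pik3ip1 were higher and Zfp36l2 lower of 9, beside 4.53% and 4.63% of all genes. Ddit4, an inhibitor of the mTOR kinase complex, stood at 196, 253 and 219 CPM from 38, 68 and 49 members in saline, 4 h and 8 h. Its ratio was 1.29 at 4 h (0.958 to 1.75) and 1.12 at 8 h (0.810 to 1.55). In the reference Ddit4 stood at 264, 174 and 168 CPM, ratios of 0.656 and 0.637. The ratio of both ratios was 1.97 at 4 h (1.44 to 2.68) and 1.76 at 8 h (1.26 to 2.44). In Foxp3-positive cells Ddit4 was at 0.881 of saline at 4 h and 0.580 at 8 h, with a 4 h ratio of ratios of 1.47 (0.978 to 2.20) and an 8 h one of 1.93 (1.24 to 3.01). Tsc22d3 (GILZ, a mediator of glucocorticoid action) was at 0.761 at 4 h and 0.628 at 8 h in the members, with both intervals crossing 1, and at 0.703 and 0.666 in the reference. The members held only 27, 28 and 19 Tsc22d3 molecules. Cxcr4, a receptor that holds lymphocytes in tissues, was 1.59 times saline at 8 h in the members (0.8645 to 3.003) and 0.593 in the reference, a ratio of ratios of 2.68 (1.43 to 5.02). In all, 631 ratios of ratios were computed over 106 genes, and their intervals are not adjusted for that number. For genes named by rank, such as Glrx and Dusp2, the members' ratio also chose the gene, and the intervals are not adjusted for that choice either.

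Of 8 early activation genes tested at 4 h, Egr1 and Dusp2 were lower, beside 4.83% of all genes, and at 8 h 0 of 8. Of 8 NF-kB genes, Nfkbia and Nfkbid were lower at 4 h, and at 8 h Nfkbid of 6. Of all genes, 4.83% were lower at 4 h and 4.63% at 8 h. Nfkbia, the inhibitor that NF-kB itself induces, stood at 248, 148 and 249 CPM from 45, 51 and 58 cells, so it was low at 4 h alone, while the reference stayed between 207 and 218 CPM. Of 16 interferon response genes 0 were higher and 2 lower at 4 h, the GTPases Igtp and Irgm1, with a list median of -0.20, and the same 2 were lower at 8 h. Of 14 T cell receptor signalling genes 0 passed 1.5-fold at 4 h.

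Of 7 chemokine receptor genes tested at 4 h, Ccr2 and Cxcr6 were higher and 0 lower, beside 3.6% of all genes higher. Ccr2 stood at 85.6, 144 and 133 CPM from 11, 29 and 16 members, and Cxcr6 at 74.5, 136 and 98.6 CPM from 10, 24 and 19. At 8 h, of 8 tested, Ccr2 and Cxcr4 were higher and Ccr4 lower, beside 4.53% and 4.63% of all genes. Ifngr1, a chain of the interferon gamma receptor, was the 1 gene of 12 cytokine receptors past the fold at each time, at 82.8, 126 and 128 CPM, and its intervals for both ratios crossed 1. In the glycolysis list 0 of 10 genes passed 1.5-fold at either time, with medians of 0.20 and 0.17.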

How the data were processed

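Single-cell libraries of 3 sample-tagged spleen pools were analysed. The pipeline named per the file headers is BD Rhapsody WTA Multiplex, version 1.9.1, and no aligner is stated in the sources used. The deposited values are integer molecule counts per cell and gene, corrected for sequencing errors in molecular identifiers by the authors, with the authors' deposited tag call for each cell. Cells called multiplets (1063), undetermined (60) or for an unused tag (2) were left out. Doublets within a pool were not removed, and free RNA was not corrected. Cells with 200 genes and under 25% mitochondrial molecules were kept (16123).

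The members and gene lists were chosen with earlier results of these data known. Molecules were summed per class and pool and divided by the total (CPM). A gene at 0 in 1 pool was set to 3 molecules for the 1.5-fold counts. Ratios have exact conditional binomial intervals, shares Clopper-Pearson intervals and levels Poisson intervals, all 95%. With 1 pool per group there was no test. Genes were named by rank of the interval bound nearest 1: 12 each way per treatment comparison among genes with 50 molecules over both pools, and 15 higher and 10 lower against the reference, plus list genes. Rule, mitochondrial, ribosomal, immunoglobulin, T cell receptor and haemoglobin genes and Xist were not ranked. Splits within the members and the set of cycling genes were chosen after the values were seen. Coordinates are from GENCODE M21 (GRCm38), matched by symbol. The ratio and rule scripts were tested on simulated data. Python 3.11.15, numpy 2.4.6, pandas 2.3.3, scipy 1.17.1 and edgeR 4.0.16 (trimmed mean of M-values factors in 1 alternative) were used. A few genes are not reported here.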

Additional observations from a re-analysis of the deposited data

Results flagged for a closer look

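Cells that the authors' tag calls marked as multiplets entered none of the comparisons, and some of them met the rule for CD4 memory or effector cells. Of 1045 such cells with a CD3 chain molecule, 29 met it (2.775%, exact 95% interval 1.87 to 3.96%). They held a median of 4335 molecules. With 1 pool per group there was no spread between pools to search for outlying samples, and no test of a difference between groups.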

How the results depend on the processing

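No paired analysis was possible because each group is 1 pool. For the same reason no pool could be left out. At 1.5-fold, 274 genes differed at 4 h against saline, 271 at 8 h against saline and 278 at 8 h against 4 h. In that order, the counts were 170, 175 and 183 without cells holding B cell, myeloid or neutrophil molecules, 4828, 4847 and 4694 with no minimum of molecules, 48, 48 and 57 with a minimum of 100, and 983, 897 and 977 at a lower fold. With 3 or more memory genes required, the count at 8 h against saline was 170. Fewer genes reach the minimum in fewer cells: 1714, 1529 and 1816 were tested without cells holding those other molecules, against 3251, 2958 and 3350. Ccl5 at 8 h turned to 0.854 of saline with 3 or more memory genes and to 0.728 without cells holding those other molecules. Birc5 was at 0.865 of the reference without cycling members, which its own detection helped to choose. That alternative was chosen after seeing the data, as was leaving out the 2 members with most Cd74 or S100a9. Of 72 values of genes named in the treatment comparisons, 72 stayed within their counting interval with both sets of size factors. With 3 or more memory genes 41 could be computed, of which 3 moved and 1 turned. Without cells holding those other molecules 24 could be, of which 4 moved and 1 turned. At this depth a count of 3 molecules is 6.08 to 8.28 CPM, and Ifng, Il4 and Il10 were too rare to compare.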
